A study of Mus musculus with 8 samples.

Results

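The comparison set epididymal fat of obese mice given telmisartan against that of obese mice given no drug, 2 mice in each group. Groups were taken from the sample titles, so 4 of the 8 arrays of the series belong to it, and the 2 candesartan and 2 chow arrays served for reference. All 8 mice were male C57BL/6J, 6 weeks old at purchase. They ate chow with 10% of its calories from fat, or a high-fat diet (HFD) with 30%, for 24 weeks. Mice on the HFD were then assigned at random for 5 more weeks: the telmisartan group drank about 3 mg/kg/day of the drug in water, the candesartan group the same dose of candesartan, and the third group water alone. Telmisartan, candesartan and untreated HFD mice thus shared strain, sex, diet and tissue, and differed by design in the drug. RNA of each mouse was hybridized to its own 1-colour array of 45101 probe sets. Of these, 34958 probe sets carry 1 gene symbol, and 11232 genes had a probe set bright enough to test.

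Telmisartan blocks the type 1 receptor of angiotensin II, the hormone at the end of the renin-angiotensin cascade, and is also a partial agonist of PPARγ, the nuclear receptor that drives adipocyte differentiation and lipid storage. Candesartan blocks the same receptor and is not known for PPARγ activity at usual doses. Fat of obese rodents accumulates macrophages, many of them carrying the integrin CD11c, and holds a resident population with genes of alternative (M2) activation. The design asks how these receptor blockers alter gene expression in fat of obese mice.

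On the 4 arrays compared, trimmed mean signals before scaling lay between 178 (telmisartan array 2) and 248 (HFD array 1). The ratio of 3′ to 5′ probe sets lay between 1.18 and 1.21 for actin on these arrays. For Gapdh it was 0.72 and 0.725 with HFD and 0.729 and 0.773 with telmisartan. Values at the floor made up 22.4% on telmisartan array 1, against 18.6% to 20% on the other 3. Adiponectin (Adipoq), which defines adipocytes, gave scaled signals between 15646 and 18324 on them. Of 18 epididymis genes listed, 10 were on the array and 0 passed the brightness filter, and of 15 testis genes, 13 were on the array and 1 passed. The HFD mice differed little from each other: the log2 difference between their arrays had an SD over genes of 0.27, against 0.48 for the telmisartan arrays. Precision was limited by the number of arrays. An exact permutation test of 2 against 2 cannot give a two-sided p below 0.333, so tests were limma's, fitted over all 4 groups with a shared spread.

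No gene passed an adjusted p of 0.05 for telmisartan against HFD (0% of 11232 tested). The smallest adjusted p by limma was 0.766. At an unadjusted p under 0.05, 256 genes (2.28%) lay higher and 440 (3.92%) lower, 696 or 6.2% in all. The median half-width of the 95% interval of a log2 change was 0.44, for a gene taken alone and without adjustment. Much larger changes did not pass adjustment either, such as -2.11 for Adarb1 and 1.74 for Ccl8 (adjusted p 0.766 each by limma). The values below therefore describe these 4 arrays.

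Position was read as well, gene by gene, from whether the telmisartan arrays fell outside the range of the HFD arrays. Both telmisartan arrays lay above both HFD arrays for 2076 genes (18.5%) and below both for 2185 (19.5%). A larger number, 2909 genes (25.9%), had a telmisartan array on each side of the HFD pair. Distances were mostly short: 37 genes had both telmisartan arrays at least 1.5-fold above the HFD mean, and 115 had both at least 1.5-fold below it. Of the genes that did not overlap, 48.7% lay higher. That split depended on how arrays were brought to a common level: it was 59.3% after quantile normalization, 88.6% when each array was centred on its median, and 2.14% for the signals as deposited. Median centring moved the median log2 change over all genes from -0.01 to 0.26, and leaving out the scaling moved it to -0.24. List medians are therefore also given relative to the median of all genes, which those shifts of whole arrays leave unchanged. Counts by position and summed signals do move with them.

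Position also varied with brightness. In the dimmest 25% of the genes tested, 10.5% had both telmisartan arrays above and 24.3% both below. In the brightest 25%, these shares were 30.5% and 12.4%. Counts for any list below are to be read against 18.5% above and 19.5% below over all genes. A list of abundant transcripts has to be read against the shares of the brightest 25%.

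**Figure D1:**
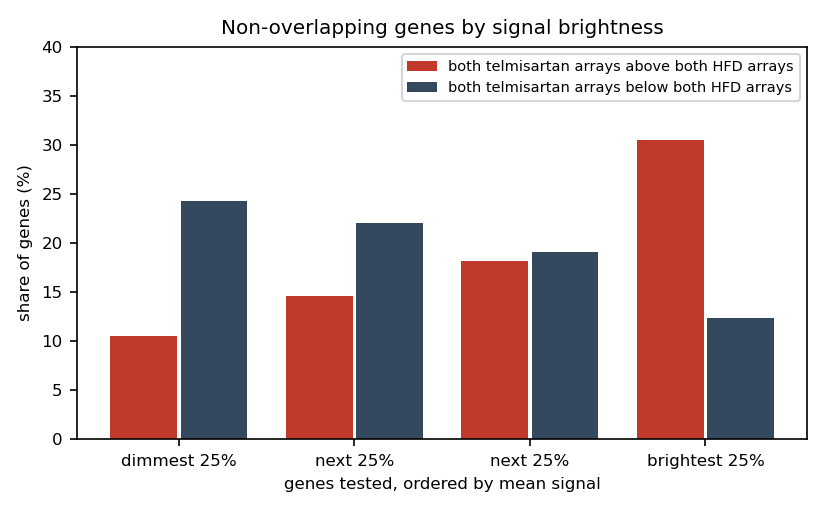
Share of genes (%, vertical axis) whose telmisartan arrays both lay above (red) or both below (dark) the HFD arrays, in each successive 25% of the 11232 genes tested, ordered by mean signal (horizontal axis). The share above goes from 10.5% in the dimmest 25% to 30.5% in the brightest, and the share below from 24.3% to 12.4%.

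The gene with the widest separation upward was Ccl8, a chemokine that attracts monocytes and is made by tissue macrophages. Its scaled signal was 2191 and 1532 on the HFD arrays and 4554 and 8192 on the telmisartan arrays. The lowest telmisartan value thus stood 1.06 log2 units above the highest HFD value, while candesartan (2712 and 1594) and chow (2566 and 2216) stayed near HFD. The log2 change was 1.74, with a 95% interval of 0.999 to 2.47. Ms4a8a, a membrane protein of the MS4A family, had 94.8 and 61.3 on the HFD arrays and 210 and 183 on the telmisartan arrays. Its log2 change was 1.36 (95% interval 0.79 to 1.93), and the telmisartan values fell close to those of chow, 256 and 199. Il1r2, the decoy receptor that captures interleukin-1, had 56.4 and 41.9 with HFD and 106 and 86.6 with telmisartan.

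The 5 genes with the smallest unadjusted p among those higher on both arrays were Depp1, Ms4a8a, Ccl8, AW112010 and Psmb10. Depp1, a target of FOXO transcription factors, had 515 and 601 on the HFD arrays and 974 and 1404 on the telmisartan arrays. Its log2 change was 1.07 (95% interval 0.64 to 1.51). A separate Depp1 probe set did not overlap either, with 359 and 439 against 711 and 744. AW112010, annotated by RefSeq as a long non-coding RNA, had 1869 and 1699 with HFD and 2813 and 3581 with telmisartan, a log2 change of 0.83. In RefSeq's gene order AW112010 is the direct neighbour of Ms4a8a. Psmb10, a catalytic subunit of the immunoproteasome, had 1406 and 1305 with HFD and 2042 and 2158 with telmisartan, a log2 change of 0.63 (95% interval 0.33 to 0.93).

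The other genes with wide upward gaps were mostly dim. Ropn1l, a sperm flagellum protein, gave 79.7 and 76.8 with HFD and 145 and 148 with telmisartan. Apoc2, the cofactor of lipoprotein lipase, gave 146 and 137 with HFD and 250 and 297 with telmisartan. Upb1, Slc9b2, Fam110c, Grb7, Gpr135 and Fancc completed the 12 widest, with log2 changes between 0.77 and 1.09. Of the 12, 10 belonged to the dimmer 50% of the genes tested. A further probe set past the filter existed for 3 of them. Its difference had the same sign in all 3 and did not overlap in 2 (Depp1 and Fam110c).

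The widest separation downward was that of Adarb1, an adenosine deaminase that edits RNA. Its signal was 81.7 and 105 on the HFD arrays and 14.7 and 31.2 on the telmisartan arrays, a log2 change of -2.11 (95% interval -2.96 to -1.26). The other Adarb1 probe set past the filter overlapped, with 41.8 and 70.6 against 42.3 and 46.3, so the difference was not shared by the probe sets of the gene. Kirrel3, a cell adhesion protein, gave 79.0 and 58.9 with HFD and 17.6 and 23.8 with telmisartan. Cd163l1, a scavenger receptor of the CD163 family, gave 63.9 and 79.9 with HFD and 24.5 and 29.9 with telmisartan, a log2 change of -1.40. All 12 of the genes with the widest downward gaps were in the dimmer 50%, and 10 were in the dimmest 25%.

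Pdgfra was the brightest of the 5 genes with the smallest p among those lower on both arrays. It encodes the platelet-derived growth factor receptor that marks adipocyte progenitors and fibroblasts. Its signal was 938 and 1078 on the HFD arrays and 481 and 561 on the telmisartan arrays, with 855 and 1093 under candesartan. The log2 change was -0.95 (95% interval -1.39 to -0.52). A separate Pdgfra probe set gave 194 and 235 with HFD and 93.6 and 110 with telmisartan, again with no overlap. Gem, a small GTPase, had 97.7 and 110 with HFD and 49.2 and 36.2 with telmisartan. Zbed6, a transcriptional repressor, had 185 and 167 with HFD and 80.1 and 86.0 with telmisartan, and candesartan was low as well, at 90.8 and 108. Cyp2s1, a cytochrome P450, gave 164 and 255 with HFD and 86.1 and 85.2 with telmisartan, and Hmga2, a chromatin protein of proliferating precursors, gave 85 and 86.9 against 48.4 and 49.0. For Rpl39, Etohd2, Sema4c, Zfp354c and Dmrtc1a the log2 changes lay between -1.52 and -0.93.

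**Figure D2:**
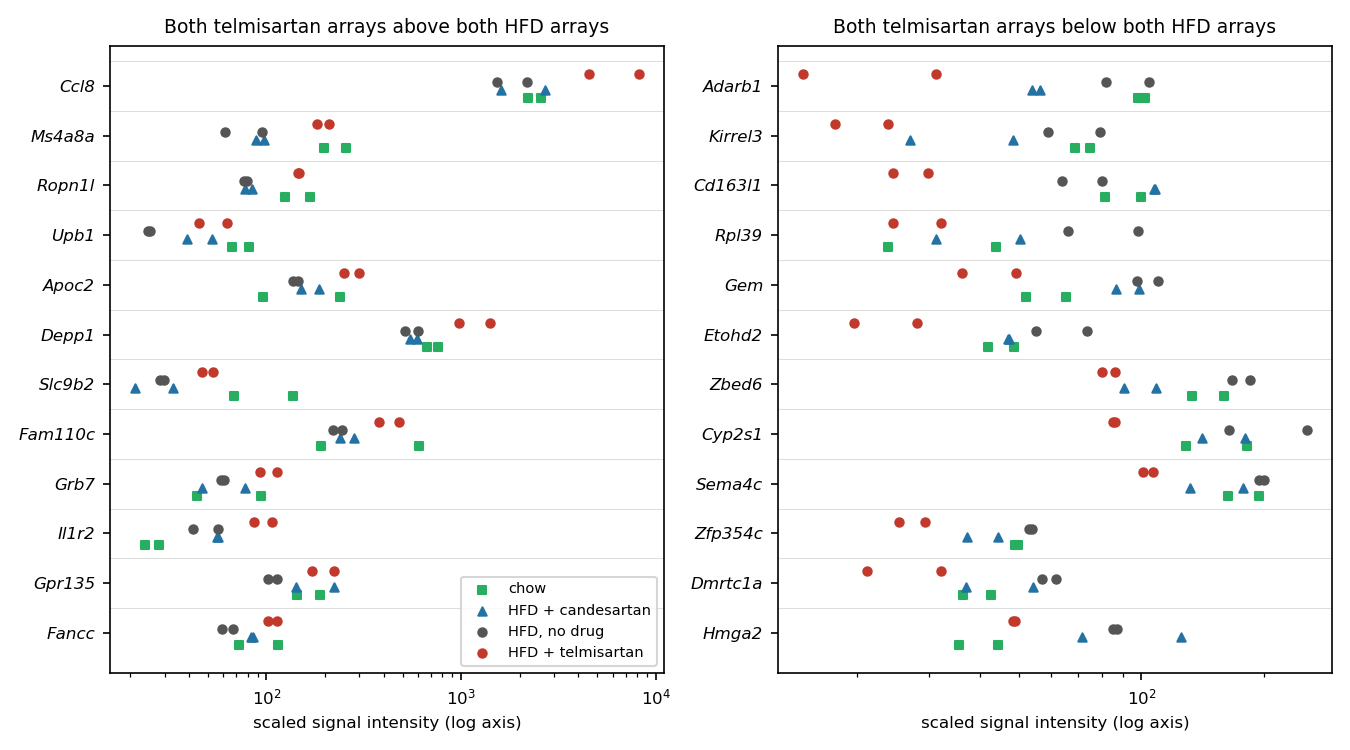
Scaled signal (horizontal log axis, arbitrary intensity units) of the 12 genes with the widest gap upward (left) and downward (right), 1 point per array and 4 groups of 2. The telmisartan points lie beyond the HFD points by construction of the choice, and most of these genes are dim, with Ccl8 (4554 and 8192) as the bright exception.

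Pan-macrophage genes had no shared direction across the telmisartan mice. Of 23 pan-macrophage genes, 0 had both telmisartan arrays on the same side of HFD and 20 had 1 array above and 1 below. The list median relative to the HFD mean was -0.33 on telmisartan array 1 and 0.32 on array 2, and array 2 exceeded array 1 in all 23 genes. Over both arrays the median was 0.02 above that of all genes, and 0.13 below it after quantile normalization. Adgre1, which encodes the F4/80 antigen, had 2629 and 2632 with HFD and 1743 and 3503 with telmisartan. Summed over the list, the signal was 71020 and 108700 on the telmisartan arrays against 84080 and 85860 with HFD. In whole tissue, fewer cells of a type and less RNA per cell cannot be told apart.

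Genes of alternative activation lay above HFD on both arrays more often than below. Of 22 M2 genes tested, 9 lay above on both and 3 below on both, against 18.5% and 19.5% of all genes. The list holds 10 genes of the brightest 25%, where 30.5% of all genes were above on both. Among the 22, there were 5 with an unadjusted p under 0.05 in the higher direction and 1 in the lower. The list median was 0.24 above that of all genes, and 0.14 above it after quantile normalization. Both arrays contributed alike, at 0.23 and 0.19 over the HFD mean. Retnla, the resistin-like protein used as a marker of M2 activation, had 4700 and 3004 with HFD and 8221 and 6351 with telmisartan. Its log2 change was 0.94 (95% interval 0.43 to 1.46), and the telmisartan arrays stood between HFD and chow (10882 and 11626). Clec10a, a galactose-type lectin of M2 macrophages, had 1607 and 1176 with HFD and 2037 and 2463 with telmisartan, a log2 change of 0.70 (95% interval 0.28 to 1.13).

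Mgl2 and Cd209d were higher mainly on telmisartan array 1, the array on which pan-macrophage genes were low. Mgl2, a lectin related to Clec10a, had 210 and 169 with HFD and 543 and 224 with telmisartan. Cd209d, a lectin receptor, had 96.0 and 66.5 with HFD and 279 and 108 with telmisartan. Cd163, the haemoglobin scavenger receptor, had 437 and 222 with HFD and 587 and 475 with telmisartan, so the groups were separated only narrowly. Arg1, arginase of M2 macrophages, was dim, with 67.9 and 78.5 against 79.2 and 128. Mrc1, the mannose receptor, overlapped, with 2353 and 1877 against 1634 and 3177, and its log2 change of 0.12 turned to -0.11 without scaling. Klf4, a transcription factor of M2 polarization and of other cells, was lower, with 1149 and 1105 against 939 and 823. Pparg, which adipocytes express as well, had 1660 and 1792 with HFD and 2580 and 1856 with telmisartan.

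M1 and CD11c genes showed no common position: of 12 tested, 3 lay above on both arrays and 3 below on both, and the list median was 0.01 below that of all genes and 0.01 above it after quantile normalization. Itgax, which encodes CD11c, had 1560 and 1987 on the HFD arrays and 897 and 1470 on the telmisartan arrays. Its log2 change was -0.62 (95% interval -1.20 to -0.03; unadjusted p 0.04 and adjusted p 0.766 by limma). Chow stood far lower, at 195 and 217. The 3 genes of the list above on both arrays were Cxcl9, Cxcl10 and Saa3. Cxcl9 had 752 and 642 with HFD and 848 and 2538 with telmisartan, a log2 change of 1.08. Cxcl10 had 158 and 142 against 163 and 299, and Saa3 had 1317 and 1122 against 2533 and 1352. Ccl2, the monocyte chemokine MCP-1, had 706 and 847 with HFD and 838 and 727 with telmisartan, a log2 change of 0.01 with no fixed sign across scalings. Tnf was below the brightness filter and was not tested.

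Among 16 genes of lipid-laden macrophages and lysosomes, 4 lay above on both arrays and 3 below on both, with a median 0.05 above that of all genes and 0.11 below it after quantile normalization. All 16 were in the brightest 25%, where 30.5% of all genes were above on both and 12.4% below. Those below were led by proteases of obese fat. Ctsk, cathepsin K, had 2320 and 2968 with HFD and 1211 and 1863 with telmisartan, a log2 change of -0.80 (95% interval -1.32 to -0.29). Mmp12, macrophage elastase, had 2805 and 4188 with HFD and 1409 and 2442 with telmisartan. Gpnmb, a glycoprotein of lipid-loaded macrophages, had 6483 and 7776 with HFD and 4258 and 5649 with telmisartan. In chow fat these 3 genes were at 420 and 458, 65.2 and 107, and 140 and 298. Plin2 was among the 4 genes above on both, with 10999 and 11421 with HFD and 12701 and 12975 with telmisartan. In chow fat it was at 6317 and 5389.

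Of 12 genes of monocyte chemokines and their receptors, 9 were higher on average with telmisartan. Both arrays were above HFD for 6 (18.5% of all genes), both below for 0 and 1 on each side for 4, and the list median was 0.27 above that of all genes (0.11 after quantile normalization). Besides Ccl8, Ccl12, a further monocyte chemokine, had 112 and 113 with HFD and 162 and 424 with telmisartan. Ccl6, made by macrophages, had 4832 and 4838 with HFD and 5675 and 6390 with telmisartan. Ccr1, a receptor for several of these chemokines, had 115 and 112 with HFD and 168 and 150 with telmisartan. Ccl12 was much higher on array 2, whereas Ccl6 and Ccr1 were close to each other on the telmisartan arrays.

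**Figure D3:**
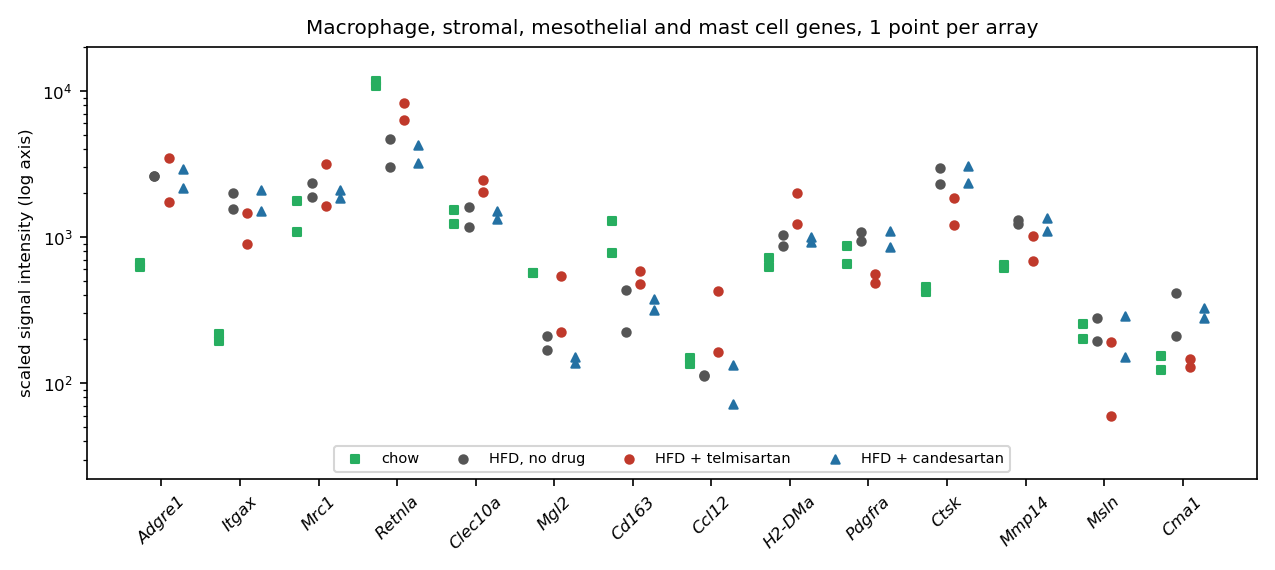
Scaled signal (vertical log axis, arbitrary intensity units) of 14 genes of macrophages, stroma, mesothelium and mast cells, 1 point per array, in chow, HFD, telmisartan and candesartan mice. Retnla and Clec10a lie above HFD on both telmisartan arrays and Pdgfra, Ctsk and Mmp14 below, whereas Adgre1 and Mrc1 have a telmisartan point on each side.

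Antigen presentation and interferon genes were set apart by telmisartan array 2. Of 8 MHC class II genes tested, 6 lay above on both arrays and 0 below on both, against 18.5% and 19.5% of all genes. The list holds 5 genes of the brightest 25%, where 30.5% of all genes were above on both. The list median was 0.38 above that of all genes (0.29 after quantile normalization). The 2 arrays differed, with list medians of 0.11 and 0.69 over the HFD mean. H2-DMa, a chaperone of peptide loading, had 1040 and 870 with HFD and 1220 and 1998 with telmisartan, a log2 change of 0.71. H2-Ab1, a chain of the class II molecule, had 5313 and 4450 with HFD and 5605 and 10543 with telmisartan. Array 1 was thus only just outside the HFD range, and array 2 far outside it.

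Of 19 interferon-response genes, 5 lay above on both arrays, 0 below on both, and 12 had an array on each side. Over all genes these shares were 18.5%, 19.5% and 25.9%. The list median was 0.31 above that of all genes (0.39 after quantile normalization). All 19 were higher on telmisartan array 2 than on array 1. The list medians were -0.33 on array 1 and 0.74 on array 2, and the summed signal was 8815 and 20420 against 9911 and 9190 with HFD. Gbp2, a guanylate-binding protein, had 1508 and 1199 with HFD and 1731 and 2718 with telmisartan. Igtp, an immunity-related GTPase, had 415 and 401 with HFD and 440 and 1534 with telmisartan. Psmb8 and Psmb9, the companions of Psmb10 in the immunoproteasome, had 1226 and 1306 against 1447 and 2201, and 707 and 614 against 776 and 1474. Psmb10 was the subunit with the telmisartan arrays closest together.

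Promoters of these genes were searched for the letters that define an interferon-stimulated response element (GAAA, any 2 bases, GAAA) and a STAT6-type site (TTC, any 4 bases, GAA), on both strands of the 300 bases around the gene start (250 before and 50 after; RefSeq sequences, build GRCm38.p6). Shares over all promoters are of promoter entries, 32851 for 27025 genes. A listed gene instead counted once if any of its entries matched, so the measures differ. The first pattern occurred in 3.44% of all 32851 promoters and in 9 of the 16 interferon-response genes with a promoter in the table. Among the 5 that lay above on both arrays, 3 held it: Gbp2, Igtp and Cxcl10. The second occurred in 6.95% of all promoters and in 3 of the 16 interferon-response genes. Among the 22 M2 genes tested, 16 had a promoter in the table, and 3 of these held it. Of the 9 M2 genes above on both arrays, 6 had a promoter there, and Retnla alone held the second pattern. Interleukin-4, acting through STAT6, is a known inducer of Retnla, and interferons induce Gbp2 and Igtp. The 3 promoters below are those of the genes whose values were given above, with the matched letters in capitals.
Retnla, chr16:48842359-48842658, plus strand: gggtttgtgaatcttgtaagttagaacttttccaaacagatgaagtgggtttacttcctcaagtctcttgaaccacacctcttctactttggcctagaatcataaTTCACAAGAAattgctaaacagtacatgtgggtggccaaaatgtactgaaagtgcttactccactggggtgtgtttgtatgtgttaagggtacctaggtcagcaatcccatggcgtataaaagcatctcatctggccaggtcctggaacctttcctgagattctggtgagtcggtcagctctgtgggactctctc
Igtp, chr11:58199306-58199605, plus strand: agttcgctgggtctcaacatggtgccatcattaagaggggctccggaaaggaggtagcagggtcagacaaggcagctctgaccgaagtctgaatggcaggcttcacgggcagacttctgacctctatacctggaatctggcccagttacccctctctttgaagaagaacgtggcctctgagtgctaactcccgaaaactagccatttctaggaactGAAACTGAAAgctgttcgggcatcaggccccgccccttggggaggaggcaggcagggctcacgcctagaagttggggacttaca
Gbp2, chr3:142620413-142620712, plus strand: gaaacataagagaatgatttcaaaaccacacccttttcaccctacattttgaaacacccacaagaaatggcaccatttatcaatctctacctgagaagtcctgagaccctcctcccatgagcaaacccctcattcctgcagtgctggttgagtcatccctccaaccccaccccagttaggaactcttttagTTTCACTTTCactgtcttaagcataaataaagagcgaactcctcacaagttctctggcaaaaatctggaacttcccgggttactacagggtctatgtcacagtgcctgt
The match begins 145 bases before the gene start in Retnla, 34 in Igtp and 59 in Gbp2, where it lies on the opposite strand. A match of letters is not evidence of binding.

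**Figure D4:**
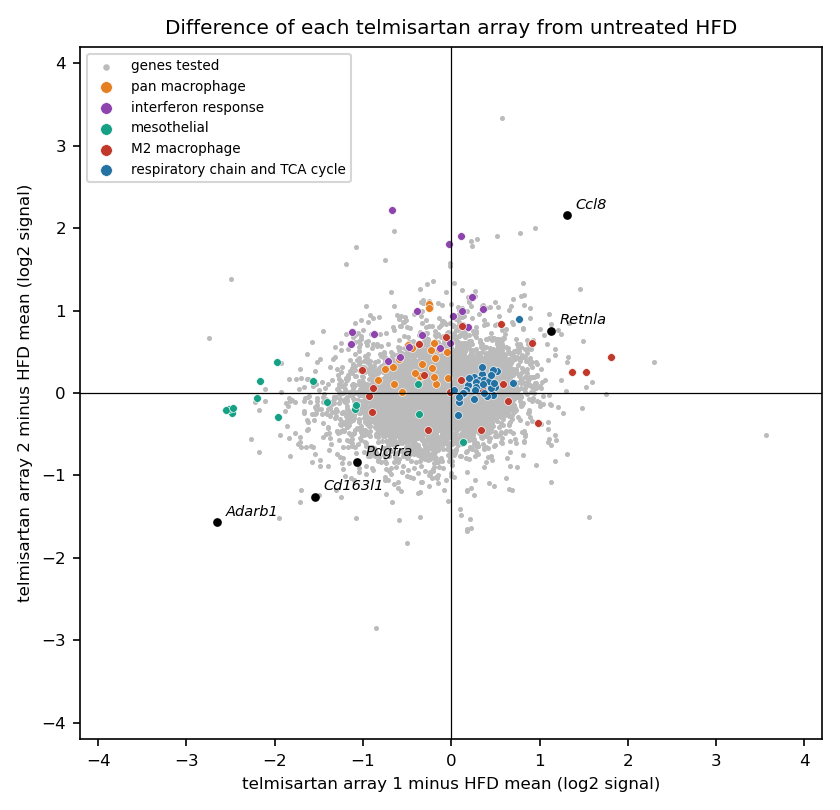
Log2 signal minus the HFD mean on telmisartan array 1 (horizontal) and array 2 (vertical) for the 11232 genes tested (grey) and the members of 5 gene lists (colours). Interferon genes lie toward the top, mesothelial genes toward the far left and respiratory chain genes just right of the origin, while Ccl8 and Retnla lie in the upper right and Adarb1, Cd163l1 and Pdgfra in the lower left.

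The system that telmisartan blocks was described next. Of 18 renin-angiotensin genes listed, 11 were bright enough, of which 0 lay above on both arrays and 3 below on both. Over all genes these shares were 18.5% and 19.5%. The list median was 0.21 below that of all genes, also after quantile normalization. Agtr1a, the receptor itself, had 476 and 396 with HFD and 338 and 413 with telmisartan, which overlap. Its log2 change of -0.22 (95% interval -0.60 to 0.17) turned to 0.05 after median centring. Agt, the angiotensin precursor, had 391 and 366 with HFD and 780 and 345 with telmisartan, so array 1 alone was high. The 3 genes below on both arrays were Cma1, Mme and Nr3c2. Cma1, a mast cell chymase that can cleave angiotensin I, had 210 and 415 with HFD and 129 and 147 with telmisartan, a log2 change of -1.10. Mme, the peptidase neprilysin, had 806 and 737 against 643 and 565, while its other probe set past the filter overlapped, with 160 and 137 against 155 and 116. Nr3c2, the mineralocorticoid receptor, had 69.8 and 68.2 against 41.1 and 56.4.

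Targets of PPARγ in adipocytes were mostly above HFD. Of 22 tested, 13 were above on both arrays and 2 below on both, and 16 of the 22 belonged to the brightest 25%, where 30.5% of all genes were above on both. The list median was 0.21 above that of all genes, but 0.04 above it after quantile normalization. Dgat1, which completes triglyceride synthesis, had 2643 and 2464 with HFD and 3579 and 3018 with telmisartan, but its other probe set past the filter lay below, with 130 and 158 against 120 and 84.6. The mean over its probe sets gave -0.07 in place of 0.37. Hcar2, the niacin receptor of adipocytes, had 222 and 180 with HFD and 370 and 268 with telmisartan. Cidea, a lipid droplet protein, went the other way, with 173 and 152 against 103 and 104. Slc2a4, the insulin-responsive glucose transporter, had an array on each side, with 467 and 546 against 757 and 449. Adipoq differed by 0.07 with a 95% interval of -0.18 to 0.31, and Lep, leptin, by 0.07 with an interval of -0.34 to 0.48. Both signs turned after quantile normalization and without scaling.

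Genes of fat metabolism were also mostly above HFD. Of 23 genes of lipogenesis and triglyceride synthesis, 16 lay above on both arrays and 1 below on both. Their median was 0.30 above that of all genes (0.13 after quantile normalization). Of the 23, 19 were in the brightest 25%, where 30.5% of all genes were above on both and 12.4% below. Gpam, which starts glycerolipid synthesis, had 2556 and 2322 with HFD and 4367 and 3183 with telmisartan, a log2 change of 0.61 (unadjusted p 0.008). Mgll, a lipase of monoglycerides, had 8231 and 7333 with HFD and 9469 and 9016 with telmisartan. Pck1, the enzyme of glyceroneogenesis, was the gene below on both, with 2078 and 2294 against 1927 and 1354.

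Mitochondrial genes showed small upward differences. Of 33 respiratory chain and TCA cycle genes, 21 lay above on both arrays and 0 below on both, and 32 of the 33 were in the brightest 25%. Their median was 0.23 above that of all genes and 0.07 above it after quantile normalization. Cox5b, a subunit of cytochrome c oxidase, had 7444 and 6995 with HFD and 10021 and 8795 with telmisartan. Cox4i1, of the same complex, had 7745 and 8264 with HFD and 10175 and 9429 with telmisartan. Among 19 fatty acid oxidation genes, 11 were above on both and 0 below on both, and 16 of the 19 were in the brightest 25%. There, 30.5% of all genes were above on both and 12.4% below. The median of the fatty acid oxidation list was 0.25 above that of all genes and 0.07 above it after quantile normalization. Telmisartan array 1 carried the larger part: the respiratory list was at 0.33 on array 1 and 0.10 on array 2, and the lipogenic list at 0.43 and 0.20. Candesartan arrays were at 0.13 and 0.11 for the respiratory list. Adipocyte identity genes, 9 of 17 above on both and 0 below, had a median 0.18 above that of all genes and 0.00 above it after quantile normalization. Of these 17, 14 were in the brightest 25%, with its shares of 30.5% above on both and 12.4% below.

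Genes of the unfolded protein response were even across the telmisartan arrays. Of 19 tested, 12 lay above on both arrays and 2 below on both, and the list medians were 0.17 and 0.16 over the HFD mean. Dnajb9, an endoplasmic reticulum co-chaperone, had 1833 and 1614 with HFD and 2401 and 2257 with telmisartan, a log2 change of 0.44. Herpud1, a component of protein degradation at that membrane, had 976 and 1047 with HFD and 1321 and 1319 with telmisartan. Manf, a secreted stress protein, had 1359 and 1259 with HFD and 1724 and 1740 with telmisartan. The median stood 0.20 above that of all genes, 0.05 after quantile normalization. Of the 19 genes, 14 were in the brightest 25%, where 30.5% of all genes were above on both and 12.4% below.

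Progenitor and stromal genes were mostly below HFD. Of 14 tested, 1 was above on both arrays and 9 below on both, against 18.5% and 19.5% of all genes. The list median was 0.23 below that of all genes (0.34 below after quantile normalization), and the arrays were alike, at -0.28 and -0.18. After Pdgfra, Dpp4, a peptidase of early progenitors, had 227 and 247 with HFD and 132 and 180 with telmisartan. F3, tissue factor, had 550 and 610 against 312 and 346. Dcn, the matrix proteoglycan decorin, had 10439 and 11424 against 8282 and 9771.

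Matrix genes were mixed, with some proteases lower. Of 29 matrix and fibrosis genes, 2 lay above on both arrays and 5 below on both, against 18.5% and 19.5% of all genes. The list median was 0.01 above that of all genes and 0.15 below it after quantile normalization. Mmp14, a membrane-bound collagenase, had 1235 and 1313 with HFD and 690 and 1019 with telmisartan, a log2 change of -0.60. Mmp2, the gelatinase it activates, had 1420 and 1341 with HFD and 810 and 1084 with telmisartan, a log2 change of -0.56. Their chow levels were 641 and 611, and 475 and 591. Sparc was among the 2 genes above on both, with 15222 and 15458 with HFD and 16927 and 16859 with telmisartan. A dim probe set of Sparc lay below, with 61.9 and 71 against 39.8 and 49.2. Of 11 pericyte and smooth muscle genes, 0 were above and 4 below on both, against 18.5% and 19.5% of all genes. The median of that list was 0.05 below that of all genes (0.07 below after quantile normalization). Abcc9, a potassium channel subunit, was among the 4, with 958 and 976 against 568 and 831. Of 17 endothelial genes, 3 were above and 7 below on both, against the same 18.5% and 19.5%. The endothelial median was 0.02 below that of all genes (0.06 below after quantile normalization). Egfl7, a secreted endothelial factor, had 843 and 714 with HFD and 441 and 587 with telmisartan, and 1 of its other 3 probe sets past the filter overlapped (337 and 379 against 241 and 445). Gpihbp1, the capillary anchor of lipoprotein lipase, had 1997 and 1943 against 2390 and 2539.

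Immediate early genes, which respond within minutes to stimuli and to tissue handling, were below HFD on both arrays in 11 of 19 cases and above in 0, against 19.5% and 18.5% of all genes. The median was 0.35 below that of all genes (0.36 below after quantile normalization). The list medians were -0.58 on array 1 and -0.12 on array 2. Candesartan array 1 was at -0.56 and candesartan array 2 at 0.08. Nr4a1, an orphan nuclear receptor of this class, had 448 and 377 with HFD and 157 and 253 with telmisartan, a log2 change of -1.04. Egr3, a zinc finger factor, had 74.2 and 93.0 against 42.5 and 54.7. The part of dissection in these values was not tested.

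Of 16 circadian genes tested, 2 lay above and 7 below on both arrays, against 18.5% and 19.5% of all genes. The list holds 6 genes of the dimmest 25%, where 24.3% of all genes were below on both. The median was 0.21 below that of all genes, also after quantile normalization. Nr1d2, the repressor REV-ERBβ, had 2104 and 2130 with HFD and 1292 and 1760 with telmisartan, a log2 change of -0.49, while its other probe set past the filter overlapped (109 and 109 against 77.5 and 116). Hlf, a clock output factor, had 79.1 and 107 with HFD and 70.6 and 39.6 with telmisartan, but its other probe set overlapped (37.9 and 69.8 against 34.7 and 75.9). Cry1, a repressor of the opposite phase, was higher, with 51.4 and 50.3 against 73.5 and 80.0. The hour at which tissue was taken is not given in the sources used here, and its part was not tested.

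**Figure D5:**
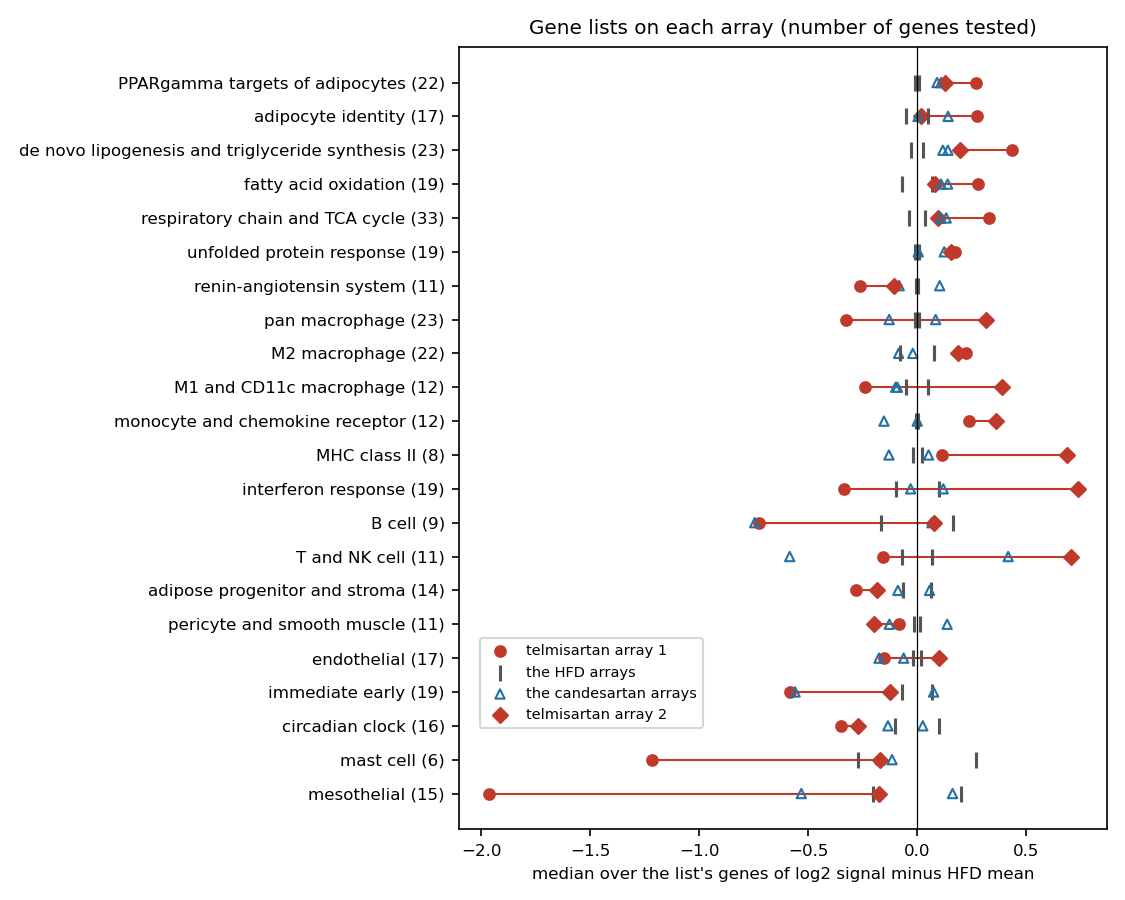
Median over each list's genes of log2 signal minus the HFD mean (horizontal axis), for each telmisartan array (filled red), HFD array (bars) and candesartan array (open triangles), with the number of genes tested in brackets. Lines join the telmisartan arrays, which lie close together for the M2, unfolded protein response and progenitor lists and far apart for the interferon (-0.33 and 0.74) and mesothelial (-1.97 and -0.18) lists.

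Some marker lists differed strongly between the telmisartan mice. Mesothelial genes, which come from the lining of the fat pad, summed to 1932 on telmisartan array 1 and 6464 on array 2, against 5423 and 7453 with HFD and 4695 and 7696 with candesartan. Of 15 tested, 14 were lower on array 1, and 0 lay above HFD on both arrays and 2 below. The list median was 0.79 below that of all genes (0.82 below after quantile normalization). Msln, mesothelin, had 194 and 280 with HFD and 59.7 and 191 with telmisartan. Upk1b, a uroplakin of mesothelium, had 350 and 476 with HFD and 69.4 and 352 with telmisartan. Mast cell genes summed to 617 and 1174 with telmisartan against 1129 and 1801 with HFD. Of 6 tested, 0 lay above on both arrays and 3 below, and 3 had an unadjusted p under 0.05 in the lower direction. Their median was 0.84 below that of all genes (0.77 below after quantile normalization). Mcpt4, a mast cell protease, had 239 and 303 with HFD and 114 and 227 with telmisartan, and chow mice had 122 and 147. B cell genes summed to 16000 and 26760 with telmisartan, against 19330 and 18260 with HFD and 20860 and 12310 with candesartan, and were higher on array 2 in all 9 genes. None of the defining markers named here was at 0 on any array. This cannot show whether a cell type was present, since genes too dim to test also read above 0. Lcn5, of the epididymis list, had 1.3 and 1.39 with HFD and 2.72 and 3.94 with telmisartan. The part of mesothelial, mast and B cells in the differences above was not tested.

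Genes at least 2-fold apart between the telmisartan mice numbered 534 (4.75%), of which 422 were higher on array 2. Between the HFD mice there were 89 (0.79%). The genes farthest apart upward on array 2 were of a few kinds: immunoglobulin chains (Igkv4-72, Iglv1, Igkv15-103 and Igk), the interferon-inducible GTPase Iigp1, the Fc receptor Fcgr4, and the mesothelial genes Upk1b and Slpi. Iigp1 had 515 on telmisartan array 1 and 3820 on array 2, against 844 and 790 with HFD. Igk had 725 and 4898, but it was also uneven in HFD mice, at 3050 and 901, and in candesartan mice, at 4690 and 119. The genes farthest apart upward on array 1 were Cuzd1, Gpr27, Itm2a, Plekhb1, Kcnq1, Tgfb2, Prom1 and Col4a4. Cuzd1 had 242 and 14.3 with telmisartan, 15.9 and 25.9 with HFD, and 328 and 169 with chow. Prom1, which encodes the surface protein CD133, had 219 and 57.8 with telmisartan, 42.5 and 46.4 with HFD, and 263 and 143 with chow.

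Telmisartan was last set against candesartan, which blocks the same receptor. No gene passed an adjusted p of 0.05 (0%), the smallest adjusted p by limma being 0.484, and 550 genes (4.9%) had an unadjusted p under 0.05. The smallest p was that of Cd163l1, with 24.5 and 29.9 under telmisartan and 108 and 107 under candesartan, a log2 difference of -1.99. For Ccl8 the drugs differed by 1.55 on the log2 scale (95% interval 0.82 to 2.29), for Retnla by 0.96, for Clec10a by 0.67, for Depp1 by 1.04 and for Pdgfra by -0.90, each with an adjusted p of 0.924 by limma. Pparg differed by 0.09 and Adgre1 by -0.03. Doses were the same per body weight; whether they block the receptor equally is not given in the sources used here.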

How the data were processed

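Total RNA of epididymal fat from 8 mice was hybridized to Affymetrix Mouse Genome 430 2.0 arrays, 1 per mouse. Each deposited value is the intensity of a probe set on a linear scale, which the authors obtained from the GeneChip Analysis Suite, per the series design text. Any scaling inside that software is not given in the sources used here. Each array was scaled to a common 2%-trimmed mean (the means differed by up to 1.48-fold), floored at a signal of 6.69 (the 20th percentile of all values) and taken to log2. Array controls (64 probe sets) were left out. Of 45101 probe sets, 34958 had 1 symbol in the platform annotation, 932 several and 9160 none listed, and the symbols of 34754 of these probe sets matched RefSeq's gene table. Probe sets in the upper 50% of mean log2 signal were kept (19710), and the brightest stood for a gene, which left 11232 genes. limma 3.58.1 in R 4.3.3 (lmFit, eBayes with an intensity trend) fitted the 4 groups together, with Benjamini-Hochberg adjustment over all genes. The code was tested on simulated data. Figures were drawn with matplotlib 3.10.9.

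A gap is the distance between the nearest telmisartan and HFD arrays when the groups do not overlap. Genes were named by a rule: the 12 widest gaps each way, the 5 smallest p each way among genes without overlap, the 8 farthest apart each way between the telmisartan arrays, a set of 16 macrophage, adipokine and drug-target genes, and up to 4 genes with the smallest p in each of 39 gene lists. Pck1, outside this rule, was chosen after its values were seen. The members and lists were chosen with earlier results of these data known. Quantile normalization, median centring, no scaling, other floors, filters, probe set rules, variance models, a replicate block and each array left out were run as alternatives. With 2 mice per group, p-values rest on the spread between single mice.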

Additional observations from a re-analysis of the deposited data

Results flagged for a closer look

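The drugs lay on opposite sides of both HFD arrays for 336 of the 11232 genes (2.99%), of which 5 were among the genes named here. The difference between the drugs was tested by limma, and none of the 5 passed after adjustment.

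Cd163l1 differed by -1.99 on the log2 scale between telmisartan and candesartan (adjusted p 0.484), with both telmisartan arrays below HFD and both candesartan arrays above. Prom1 differed by 1.68 and Mgl2 by 1.27, with telmisartan above HFD and candesartan below. Prdm16, a transcription factor of beige fat, differed by -0.59, and Hif1a, the hypoxia-inducible factor, by 0.30. The adjusted p of these last 4 was 0.924 each. For Prdm16 the other probe set past the filter overlapped, with 42.2 and 58.6 with HFD against 30.1 and 46.3 with telmisartan. For Hif1a the others past the filter overlapped as well (616 and 555 against 605 and 610, and 369 and 282 against 296 and 331).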

How the results depend on the processing

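The count of genes called for telmisartan against HFD was 0 in every setting run except without the filter on dim probe sets, where it was 4: Cartpt, Cckbr, Gm17619 and Pate14, each at the floor on 5 or 6 of the 8 arrays. Against candesartan it was 6 without the filter, all of them genes too dim for the test above, and 1 (Cd163l1, adjusted p 0.0407 by limma) without scaling. Both counts ranged from 0 to 0 over the settings that leave out an array. Unadjusted p under 0.05 then held for 225 to 2368 genes against HFD, the latter without telmisartan array 2, where the lone telmisartan mouse is assumed to vary like the other groups and the smallest adjusted p was 0.0664.

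Genes with both telmisartan arrays above HFD numbered 4173 after median centring and 104 without scaling, and those below numbered 539 and 4757, as a shift of whole arrays must move them. A filter at the 70th percentile left 1421 below, with fewer genes tested (8098). Of 104 named genes, 22 changed sign in some setting: by scaling, Adgre1 (0.18, median centring), Agtr1a (0.054, median centring), Col4a4 (0.023, median centring), Adipoq (-0.043 quantile, -0.16 unscaled), Lep (-0.090, -0.16), Ccl2 (-0.0042, -0.22), and unscaled Mrc1 (-0.11), Slc2a4 (-0.021), Hif1a (-0.068), Gpr27 (-0.20), Itm2a (-0.20), Igk (-0.044) and Kcnq1 (-0.053), and by averaging probe sets, Dgat1 (-0.073) and Iglv1 (-0.28). With an array left out, the ranges that crossed 0 were -0.59 to 0.41 for Adgre1, -0.36 to 0.60 for Mrc1, -0.17 to 0.58 for Slc2a4, -0.13 to 1.04 for Agt, -0.12 to 0.14 for Ccl2, -0.041 to 0.18 for Adipoq and -0.033 to 0.18 for Lep. Among genes named for the difference between the telmisartan arrays, they were -1.18 to 0.68 for Col4a4, -0.51 to 3.57 for Cuzd1, -0.65 to 1.96 for Fcgr4, -1.51 to 1.56 for Gpr27, -1.19 to 1.56 for Igk, -2.49 to 1.38 for Igkv4-72, -1.08 to 1.77 for Iglv1, -0.67 to 2.23 for Iigp1, -1.08 to 1.14 for Itm2a, -0.83 to 1.18 for Kcnq1, -0.74 to 1.32 for Plekhb1 and -1.97 to 0.37 for Slpi.

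With the replicate number as a block, 0 genes were called and 1035 had an unadjusted p under 0.05 (smallest adjusted p 0.361). The numbers are not known to pair mice: between groups, the difference of replicate 1 from replicate 2 had correlations over genes of -0.04 to 0.21.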

Other observations

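Counts in this section are to be read against 18.5% above, 19.5% below and 25.9% with an array on each side over all genes. Cholesterol synthesis genes were uneven between the telmisartan mice: of 15 tested, 5 lay above HFD on both arrays and 1 below. The list medians were 0.57 on array 1 and -0.03 on array 2, with 1 gene of 15 higher on array 2. Branched-chain amino acid catabolism, 18 genes, had 0 above and 1 below on both arrays, and 11 with an array on each side. Insulin signalling, 18 genes, had 1 above and 3 below. Genes tied to PPARγ phosphorylation in obesity, 14 tested, had 2 above and 3 below, with a median 0.04 above that of all genes and 0.11 below it after quantile normalization. Adipokines, 14 tested, had 5 above and 0 below. Of the 14, 11 were in the brightest 25%, where 30.5% of all genes were above on both and 12.4% below.

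Proliferation genes, 22 tested, had 1 above and 4 below on both arrays, against 18.5% and 19.5% of all genes. Hypoxia genes, 17 tested, had 4 above and 1 below, and NADPH oxidase and antioxidant genes, 18 tested, had 3 each way. For the latter list both counts were near the shares of all genes. Thermogenic genes were dim, with 8 of 17 listed genes tested, 4 above and 3 below. T and NK cell genes, 11 tested, had 2 above and 1 below, with list medians of -0.15 and 0.71 on the telmisartan arrays and 0.42 and -0.58 on the candesartan arrays. Dendritic cell, neutrophil, skeletal muscle and red blood cell lists had 5 or fewer genes tested each.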
